A study of Mus musculus with 2 samples.

Results

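The genes described here are 42 antiviral interferon-stimulated genes of the mouse, a set that leaves out the GBP and IRG families of interferon-inducible GTPases. Their messenger RNA was measured in RAW 264.7 cells, a macrophage-like line from a mouse tumour induced with Abelson leukaemia virus. Both groups had received IFN-gamma at 1000 U/ml for 4 h, and 1 of them had received adenosine at 300 uM together with it. RNA of 2 experiments was pooled per treatment and hybridized to 1 Affymetrix mouse expression array, so each group is 1 array of 1 pool and no difference below has a replicate check or a p-value. No array of untreated cells was analysed here, so the values show how IFN-gamma cultures with and without adenosine differed, and not how far IFN-gamma had induced a gene.

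A gene was taken from the probe sets that carry its symbol as their only symbol in the platform annotation. This matched 36 of the 42 genes, with 52 probe sets, among 12393 genes on the array. Oas1g, Ddx58, Herc6, Xaf1 and Ifi44 were not matched and were not analysed here. A probe set annotated to Oas1b, which RefSeq keeps as a gene of its own, was not taken for Oas1g. Isg15 had only a probe set shared with Gm9706 and was left out for that reason.

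Interferons protect cells by switching on genes whose products recognise viral nucleic acids, block their translation or replication, or tag viral and host proteins. Type I interferons act largely through the interferon-stimulated response element (ISRE), which a complex that contains IRF9 binds. IFN-gamma acts mainly at gamma-activated sites (GAS), and through factors such as IRF1 that can also bind ISRE-like sequences, so macrophages given IFN-gamma express many of the same antiviral genes. Adenosine is a purine nucleoside that signals through cell-surface receptors, some of which raise cyclic AMP in macrophages.

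The deposited signals of the adenosine array were lower over most of the array, with a median log2 ratio of -1.50 over gene probe sets. Its signals were therefore multiplied by 2.82, and a ratio of 0 below means the array median and not an equal deposited signal. Signals under a floor of 44.0, the 50th percentile of the scaled signals, were raised to it, and a fold that rests on the floor is given as "at least". A gene counted as measured when its brighter array reached the floor. As a measure of error, the scatter of log2 ratios within genes that have several probe sets was used, with SDs of 0.57, 0.55, 0.52 and 0.42 in 4 groups of genes from dim to bright.

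Antiviral genes were lower with adenosine, relative to the array median, in 18 of 35 measured cases by at least 2-fold, and in none was the gene 2-fold higher. Over all 6818 measured genes the corresponding shares were 10.1% lower and 4.52% higher. The median log2 ratio was -1.17 over the 35 antiviral genes and -0.08 over all measured genes, and 30 of the 35 lay below 0, as did 3816 of all 6818. In such pooled RNA, fewer cells expressing a gene and less of its RNA per cell cannot be told apart. Of the 35, 5 reached the floor only on the IFN-gamma array (Ifit1, Ifit3, Oasl2, Isg20 and Mx1) and so could only lie below 0. Among genes above the floor on both arrays, 16 of 30 antiviral genes were at least 2-fold lower, against 9.6% of 6251 genes. With the deposited values left unscaled, 35 of 36 were at least 2-fold lower, against 78.8% of all genes, and with the arrays set equal on their spiked-in controls 29 of 36 were, against 50.7%.

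**Figure D1:**
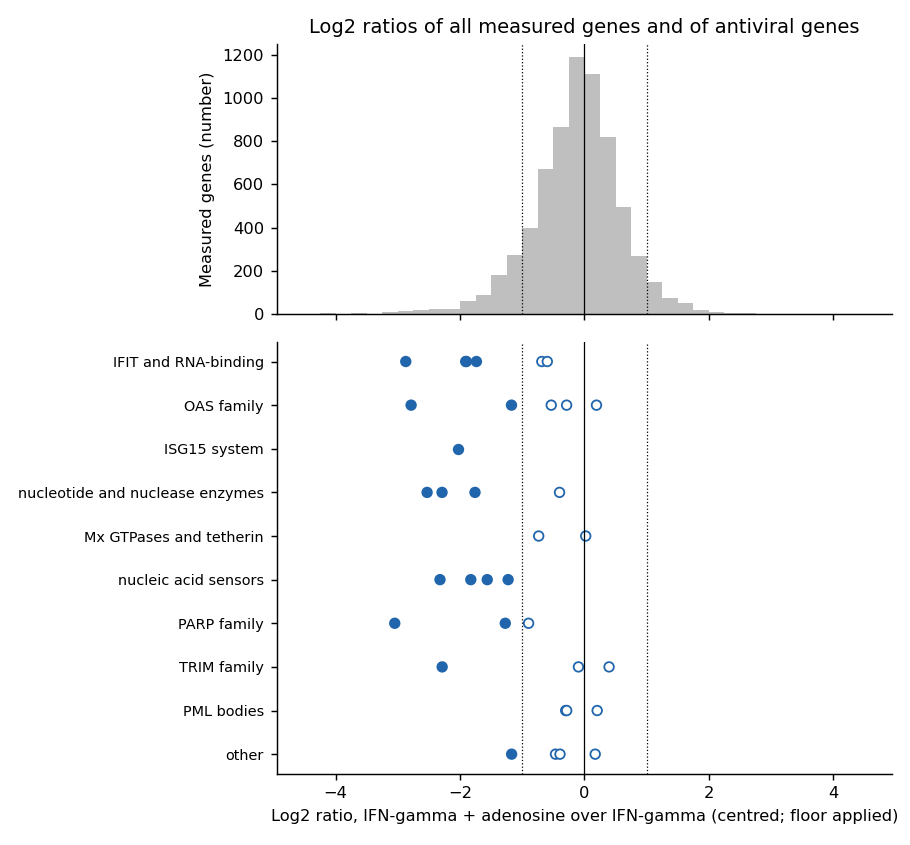
The upper panel counts all 6818 measured genes by log2 ratio of IFN-gamma with adenosine over IFN-gamma, and the lower panel gives each of the 35 measured antiviral genes as a point in its role group, filled where at least 2-fold lower. The dotted lines mark 2-fold; points spread from -3.05 to 0.40, and all 4 nucleic acid sensors but none of the 3 PML body genes lie left of the lower line.

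The differences were uneven across the genes. The 18 genes past 2-fold ranged from Parp14, 8.28-fold lower, to Tor3a, 2.25-fold lower. Each lay more than 2 SD of probe set scatter below 0. With SDs of 0.42 to 0.57, 2 SD lies close to the 2-fold threshold, so this adds little to the call. The probe sets of some of these genes differed by more than that scatter, as given below. Of the other 17, the 14 above the floor on both arrays ranged from -0.90 to 0.40 on the log2 scale, and 12 of these lay within 1 SD of 0. The remaining 3, Ifit3, Isg20 and Mx1, have only a bound. Scatter between probe sets covers probe noise on these 2 arrays and leaves out the spread between cultures, pools and arrays. Of all 6818 measured genes ordered from the lowest log2 ratio with the floor applied, 8 antiviral genes were among the first 100: Parp14 at place 14, Ifit2 at 18, Oasl2 at 22 by its bound, Rsad2 at 44, Ifi204 at 59, Cmpk2 at 64, Trim30a at 65 and Usp18 at 88.

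**Figure D2:**
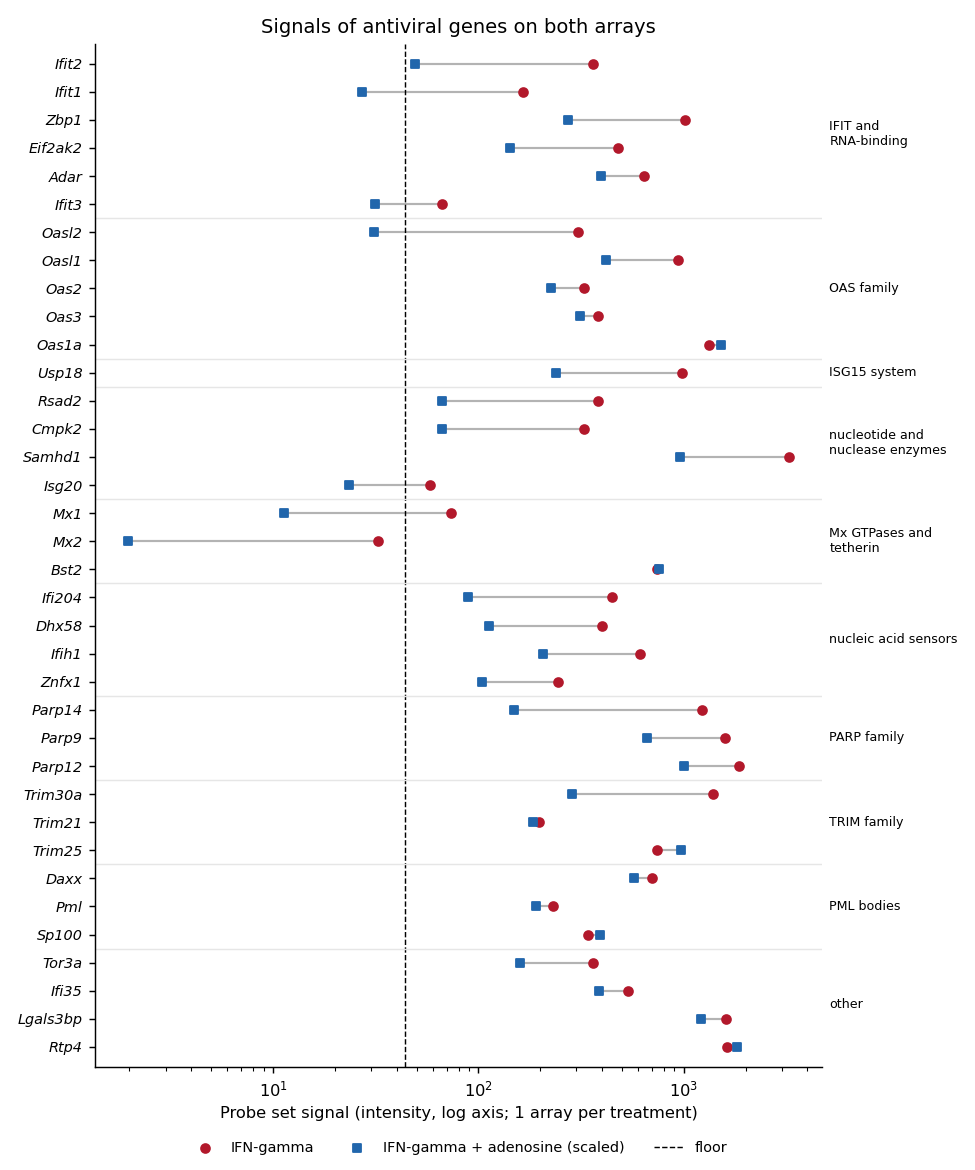
Each line is 1 of the 36 matched antiviral genes, with its probe set signal on the IFN-gamma array (circle) and the scaled signal on the adenosine array (square) on a log axis, grouped by role. The dashed line is the floor of 44.0; the square lies left of the circle for most genes, at or right of it for Oas1a, Bst2, Trim25, Sp100 and Rtp4, and both symbols of Mx2 lie under the floor.

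Because many of these genes are controlled through ISREs, their promoter windows in RefSeq (GRCm38.p6, 250 bases before to 50 after each start) were searched. The stretches below are the part before the start that surrounds the ISRE core, shown because genes that were lower and genes that were not hold the same core. Each is written 5′ to 3′ on the gene's strand, and capitals mark matches on either strand to the core (GAAA, any 2 bases, GAAA) or to the extended ISRE (the core followed by CT).
Ifit1: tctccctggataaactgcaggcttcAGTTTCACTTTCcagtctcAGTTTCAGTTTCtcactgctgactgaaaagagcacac
Rsad2: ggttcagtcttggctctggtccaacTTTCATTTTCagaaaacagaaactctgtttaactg
Trim30a: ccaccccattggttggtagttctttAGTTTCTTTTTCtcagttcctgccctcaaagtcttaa
Oas3: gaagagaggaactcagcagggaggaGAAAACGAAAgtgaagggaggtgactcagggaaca
Bst2: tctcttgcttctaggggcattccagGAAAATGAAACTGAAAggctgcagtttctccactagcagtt
Oas1a: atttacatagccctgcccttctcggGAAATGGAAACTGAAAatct
These lie at chr19:34640758-34640838 on the plus strand for Ifit1 and, on the minus strand, at chr12:26456538-26456597 for Rsad2, chr7:104465195-104465256 for Trim30a, chr5:120777700-120777759 for Oas3, chr8:71537562-71537627 for Bst2 and chr5:120907526-120907570 for Oas1a. The first capital lies 106 bases before the start in Ifit1, 120 in Rsad2, 38 in Trim30a, 75 in Oas3, 130 in Bst2 and 20 in Oas1a.

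Promoter windows were found for 31 of the 42 genes. The core was present for 13 of the 31 (41.9%), against 3.99% of all 27025 genes with a window and 3.44% of 32851 windows. The extended ISRE, whose matches are all also matches to the core, was present for 7 of 31, against 0.303% of all genes. The GAS letters TTCNNNGAA were present for 8 of 31, against 9.55%. By response, the core was present for 5 of 11 genes at least 2-fold lower and for 5 of 14 measured genes that were not. The latter include Ifit3, whose IFN-gamma signal was too dim for a 2-fold difference from the floor. Of 6 genes without a measurement, 3 held the core. A match is a description of letters in the window and not a bound site, and the window leaves out sites farther away.

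**Figure D3:**
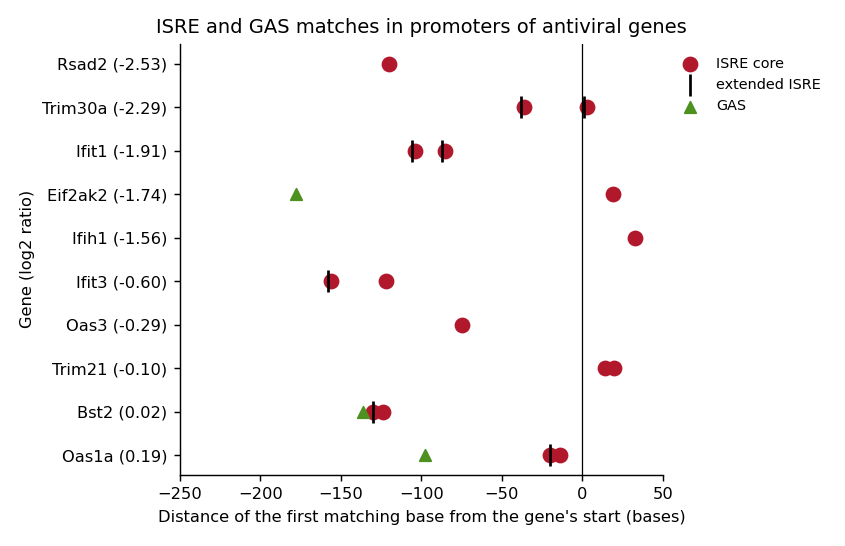
Matches to the ISRE core, the extended ISRE and the GAS letters are placed by distance in bases from the gene's start, for the 10 measured antiviral genes with an ISRE core in any promoter window, from the lowest log2 ratio at the top to the highest at the bottom (values in parentheses). Core matches lie on both sides of the start. Only genes with a core are drawn, from Rsad2 (-2.53) to Oas1a (0.19). The figure therefore cannot show whether holding a core goes with the log2 ratio.

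Among IFIT and RNA-binding genes, 4 of 6 were at least 2-fold lower. IFIT proteins bind foreign RNA and block its translation. Ifit2 went from a signal of 361 with IFN-gamma alone to 49.3 with adenosine, a 7.32-fold difference with the lower value just above the floor. Ifit1, shown above with 2 ISRE matches, went from 165 to 27.1, which is at least 3.76-fold lower. Ifit3 was at 66.6 and 31.3, so dim that the floor allows no more than "at least 1.51-fold lower". An IFN-gamma signal under 88.0 cannot give a 2-fold difference from the floor, which also holds for Isg20 and Mx1.

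Eif2ak2 encodes PKR, the kinase that halts translation when it meets double-stranded RNA. Its signals were 477 and 143, a 3.33-fold difference. Zbp1, a sensor of Z-form nucleic acid that can start cell death, was at 1013 and 271, 3.73-fold lower. Adar, which edits double-stranded RNA and so keeps it from being sensed as foreign, was at 638 and 397. Its log2 ratio of -0.69 fell short of 2-fold, but was -1.65 with spiked-in scaling.

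The OAS family had 2 of its 5 measured genes past 2-fold on the lower side. OAS enzymes make oligoadenylates that switch on RNase L, and the OAS-like genes are their relatives. Oasl2 went from 304 to 31.0, at least 6.90-fold lower, and Oasl1, a regulator of Irf7 translation, from 938 to 416, 2.26-fold lower. Oas1a, Oas2 and Oas3 were not past 2-fold. Oas2 was at 325 and 224 (log2 ratio -0.53, but -1.50 with spiked-in scaling), Oas3 at 383 and 314 (-0.29, but -1.25 with it), and Oas1a at 1326 and 1515 (0.19, but -1.30 in the deposited values and -0.77 with spiked-in scaling). All 3 lay within 1 SD of probe set scatter of 0. Oas1a has near-identical copies in its gene cluster, and which copies its probe set reads was not tested.

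Of the ISG15 system, which attaches and removes a ubiquitin-like tag, only Usp18 was measured. Usp18 removes ISG15 and also restrains signalling from the type I interferon receptor. Its signals were 978 and 238, 4.11-fold lower with adenosine.

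Enzymes of nucleotide and nucleic acid metabolism were lower in 3 of 4 cases. Rsad2 encodes viperin, which makes a chain-terminating nucleotide from CTP, and Cmpk2 a mitochondrial kinase that supplies such nucleotides. Rsad2 was at 383 and 66.2, 5.78-fold lower. Cmpk2 was at 327 and 66.8, 4.89-fold lower. Samhd1, which depletes the deoxynucleotides that retroviruses need, went from 3250 to 960, 3.39-fold lower and far above the floor on both arrays. Isg20, an RNA exonuclease, was close to the floor, at 58.1 and 23.4.

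In the group of Mx GTPases and tetherin, Mx2 did not reach the floor (32.4 and 1.97) and Mx1 has only a bound. Mx proteins are dynamin-like GTPases that trap viral nucleocapsids. Mx1 was at 73.3 and 11.3, at least 1.67-fold lower, and was past 2-fold with the lower floor or the pseudocount (log2 ratios -2.70 and -1.71). Bst2 encodes tetherin, which holds budding virions to the cell, and was at 744 and 754, a log2 ratio of 0.02 that becomes -1.48 in the deposited values and -0.95 with spiked-in scaling.

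All 4 measured sensors of nucleic acid were at least 2-fold lower. Ifi204, a DNA sensor, was at 446 and 89.1, 5.00-fold lower. Dhx58 encodes LGP2, a helper of the RNA helicase sensors, and was at 400 and 113, 3.55-fold lower. Ifih1 encodes the RNA sensor MDA5. Its signals were 610 and 206, 2.96-fold lower. Znfx1, a helicase of antiviral RNA sensing, was at 245 and 105, 2.34-fold lower. Ifi204 belongs to a cluster of similar genes, and which of them its probe set reads was not tested.

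Of the antiviral PARP genes, 2 of 3 were at least 2-fold lower. Parp14, a macrodomain ADP-ribosyltransferase, had the lowest log2 ratio of the 35, -3.05, with signals of 1230 and 149. Parp9, which works with a ubiquitin ligase in interferon responses, was at 1595 and 660, 2.42-fold lower. Parp12, a stress granule protein that limits viral translation, was at 1862 and 998. Its log2 ratio of -0.90 lay more than 2 SD of scatter below 0 but short of 2-fold. With spiked-in scaling that ratio was -1.87.

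TRIM proteins are ubiquitin ligases, and 1 of the 3 genes was at least 2-fold lower. Trim21 and Trim25 lay within 1 SD of probe set scatter of 0. Trim30a, a mouse regulator of innate signalling, was at 1394 and 286, 4.88-fold lower. Trim21, a cytosolic antibody receptor, was at 198 and 185 (log2 ratio -0.10, turning to 0.04 with quantile and 0.01 with loess scaling). With spiked-in scaling the log2 ratio of Trim21 was -1.06. Trim25, which ubiquitinates the RNA sensor RIG-I, had the highest log2 ratio of the 35, 0.40 from signals of 738 and 971. That ratio was -1.10 in the deposited values and -0.57 with spiked-in scaling.

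With median centring, the 3 genes of PML nuclear bodies, which restrain incoming viral genomes, all lay within 1 SD of 0. Pml, the body's scaffold, was at 232 and 190 (log2 ratio -0.29, but -1.78 as deposited and -1.25 with spiked-in scaling). Daxx, a histone chaperone, was at 702 and 569 (-0.30, but -1.80 as deposited and -1.27 with spiked-in scaling). Sp100 was at 340 and 392 (0.20, but -1.29 as deposited and -0.76 with spiked-in scaling).

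Of the remaining genes, Tor3a, an ATPase of the endoplasmic reticulum, was the 1 past 2-fold, at 361 and 160. Ifi35 (535 and 387) and Lgals3bp (1597 and 1215), which encodes a secreted galectin-binding protein, had log2 ratios of -0.47 and -0.39. With spiked-in scaling these were -1.43 and -1.36. Rtp4, a receptor transporter protein gene, was at 1618 and 1822, a log2 ratio of 0.17 that becomes -1.32 as deposited and -0.80 with spiked-in scaling.

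For 11 of the 35 genes another probe set was measured as well. Of the 8 among them that were at least 2-fold lower by the brightest probe set, the next brightest was at least 2-fold lower too for 4, Dhx58, Samhd1, Trim30a and Zbp1. For all 11 genes the count of lower next-brightest probe sets was also 4, and over all genes, whatever their brightest probe set, 8.56% of 2770 were. Dhx58 gave log2 ratios of -1.83 and -1.91, Trim30a of -2.29 and -1.68, and Zbp1 of -1.90 and, with the floor reached, -2.77. These genes were low by every measured probe set. Samhd1 gave -1.76 and -1.34 by its brighter pair, and -0.50 and, with the floor reached, -0.41 by a dim pair.

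Other genes rested on part of their probe sets. For Rsad2 the brightest gave -2.53, another -1.89 with the floor reached, and the remaining one -0.18. For Cmpk2 the values were -2.29 and -0.57, and for Eif2ak2 -1.74 and -0.78. For Tor3a they were -1.17 and -0.08, and with the mean of its probe sets Tor3a was no longer 2-fold lower. Among genes not called lower, Trim21 gave -0.10 and -0.95, and Rtp4 0.17 and, with the floor reached, 0.50. Trim25, also not called lower, gave 0.40, 0.31 and 1.18. The last of these, from its dimmest probe set, was more than 2-fold higher relative to the array median. Whether probe sets that disagree read different transcripts was not tested.

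**Figure D4:**
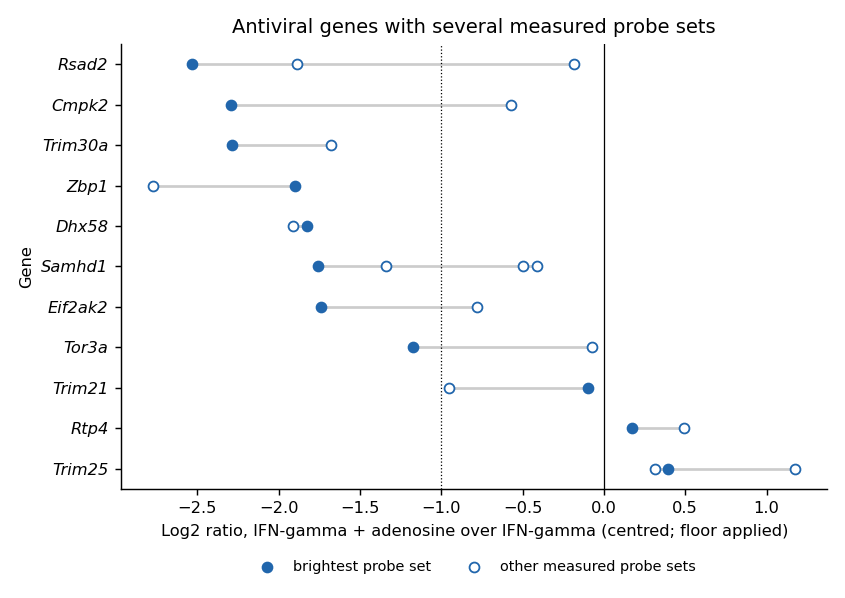
Log2 ratios of every measured probe set are drawn for the 11 antiviral genes that have several, with the brightest filled and the others open. The probe sets of Trim30a, Zbp1 and Dhx58 all lie left of the dotted 2-fold line, whereas those of Rsad2, Cmpk2, Samhd1, Eif2ak2 and Tor3a lie on both sides of it.

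Related interferon genes, in lists chosen with earlier results of these data known, are given for comparison, with no test of a difference between lists. Of 6 measured GBP genes 4 were at least 2-fold lower (median log2 ratio -2.00), with Gbp2 at -4.02, Gbp7 at -3.11 and Gbp2b at -2.58. Of 5 IRG genes 2 were (median -0.37), Irgm2 at -2.17 and Iigp1 at -1.20, while Igtp lay at -0.37. Both families held genes far below the array median, and the IRG family also held genes near it. Among 23 measured interferon-stimulated genes outside these sets, 6 were lower by 2-fold or more and none was 2-fold higher (median -0.41). The lowest were Tdrd7, a Tudor domain gene that limits autophagy in infected cells (-2.53), Helz2, a helicase gene (at least 4.89-fold lower), and the cytidine deaminase gene Apobec3 (-1.51).

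Signalling genes upstream of the antiviral response were at least 2-fold lower in 8 of 28 measured cases, against 10.1% of all measured genes. The signalling genes had a median of -0.62, and none was 2-fold higher, against 4.52% of all. The lowest were Irf8, a macrophage transcription factor (-2.99), Ikbke, a kinase of interferon induction (-2.75), and Mavs, the adaptor of the RNA sensors (at least 4.28-fold lower). Neither Stat2 nor Irf9, which act in ISRE binding, was among these 8 under median centring. Stat2 was at 289 and 440 (log2 ratio 0.61, but -0.89 as deposited and -0.36 with spiked-in scaling). Irf9 was at 259 and 226, a log2 ratio of -0.20 that becomes -1.69 in the deposited values and -1.16 with spiked-in scaling. Irf9 was thus more than 2-fold lower in those other settings. Irf7, which amplifies type I interferon production, was at 538 and 328 (-0.72). The type I receptor genes Ifnar1 and Ifnar2 had log2 ratios of -0.77 and 0.66, the latter -0.83 as deposited and -0.31 with spiked-in scaling. For Ifnar1 the deposited values gave -2.27 and spiked-in scaling -1.74. Ifnb1, the interferon beta gene, did not reach the floor, at 5.20 and 1.41.

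Markers bore out the label of the cells: all 7 macrophage markers were measured, with signals from 262 to 6444 with IFN-gamma alone and from 254 to 13361 with adenosine. None of the 12 matched markers of T, NK and B cells, fibroblasts and epithelium was measured, at 7.30 or less and 13.2 or less. Of 6 dendritic markers, Bst2 and Fscn1 (34.7 and 57.8) were measured.

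**Figure D5:**
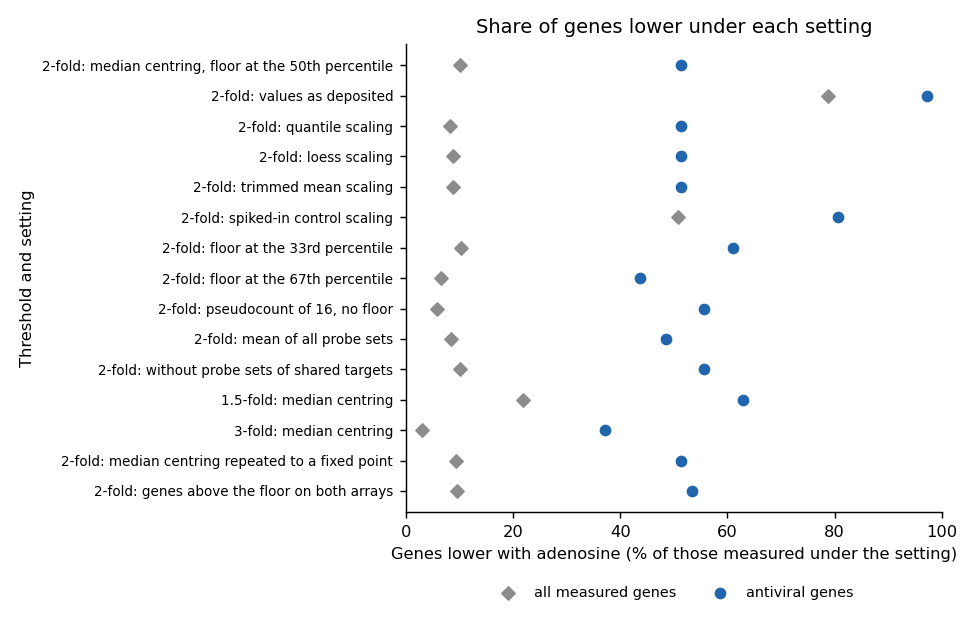
For each threshold and setting, the share of genes lower with adenosine is given in percent of those measured, for all genes (diamonds) and for the antiviral genes (circles). The circles lie right of the diamonds in every setting, at 51.4% against 10.1% with median centring, and both shift right where the deposited signals or the spiked-in controls set the scale.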

How the data were processed

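The data are deposited linear intensity values, 1 per probe set and array, for 22690 probe sets on 2 arrays. They came from the Affymetrix software GCOS, per the submitters' processing notes. Its signal method and target level are not stated there. Of 22626 probe sets that are not controls, 20380 had 1 gene symbol, 691 several and 1555 none in the table used here, and symbols were updated with RefSeq (GRCm38.p6).

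The arrays' log2 ratio was centred on its median in 10051 probe sets at or above the 50th percentile of deposited signals on both arrays. The floor followed, and the probe set with the highest mean signal stood for its gene. Probe set scatter came from the 2 brightest probe sets of 2375 genes (difference over the square root of 2, SD 0.52). The calculation was tested on simulated data. The changed genes there were drawn only from genes well above the floor, so recovery of dim genes was not tested. Other scalings, floors, a pseudocount of 16, probe set rules and thresholds were tried. Centring repeated until the shift no longer moved was added after seeing the data.

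The antiviral genes, role groups and comparison lists were chosen with earlier results of these data known. Any antiviral gene could be named. From each comparison list the 3 largest absolute log2 ratios were named, besides Stat2, Irf9, Irf7, Ifnar1, Ifnar2 and Ifnb1; a further gene that the rule names is not reported here. Precision is limited by the number of arrays. Python 3.11.15, pandas 2.3.3 and statsmodels 0.14.6 were used.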

Additional observations from a re-analysis of the deposited data

How the results depend on the processing

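No paired analysis was possible because a treatment is 1 pooled array, which also leaves no replicate to omit. Unscaled deposited signals gave 35 antiviral genes at least 2-fold lower and a median log2 ratio of -2.53, and spiked-in scaling gave 29 and -2.00, against 18 and -1.17. Both settings keep a shift of all genes, whose median was -1.50 and -1.01 there, with 78.8% and 50.7% at least 2-fold lower. With quantile, loess, trimmed mean and repeated median centring the count stayed at 18 of 35 and the median lay between -1.13 and -1.04. Over all genes 8.32%, 8.82%, 8.78% and 9.36% were lower in these settings, in that order. The floor at the 33rd percentile gave 22 of 36 (10.3% of all genes), and that at the 67th 14 of 32 (6.48%). The pseudocount gave 20 of 36 (5.79%), and the mean of all probe sets 17 of 35 (8.43%). Leaving out probe sets whose names end in _a_at, _s_at or _x_at gave 15 of 27 (10.1%). Under thresholds of 1.5-fold and 3-fold 22 and 13 of 35 were lower, against 21.8% and 2.96% of all genes. None of these settings put an antiviral gene past its threshold on the higher side. In 10 settings that bring the arrays to a common level, 13 of the 18 lower genes were lower wherever they were measured. Ifit1, Oasl2, Cmpk2 and Znfx1 lost the call under the highest floor and Tor3a with the mean of its probe sets. Samhd1 only just kept the call with the mean of its own probe sets, at a log2 ratio of -1.003. Ifit3, Isg20 and Mx1 gained it under the lowest floor, Mx1 also with the pseudocount. Signals near the floor limit what these data show of such dim genes.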

Other observations

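Several of the antiviral genes are neighbours in the RefSeq order of protein-coding genes (GRCm38.p6). Rsad2 and Cmpk2 are adjacent on chromosome 12 and had log2 ratios of -2.53 and -2.29 by their brightest probe sets. Their other probe sets gave -0.18 and, with the floor reached, -1.89 for Rsad2, and -0.57 for Cmpk2. Oasl2 and Oasl1, adjacent on chromosome 5, were at -2.79 and -1.17, whereas Oas2 and Oas3, also adjacent on that chromosome, were at -0.53 and -0.29. Parp14 and Parp9, with 1 gene between them on chromosome 16, were at -3.05 and -1.27. Ifit2 and Ifit3, adjacent on chromosome 19, were at -2.87 and -0.60, the second of these limited by the floor. Adjacent genes were not tested for likeness.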
